A study of Rattus norvegicus with 18 samples.

Results

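Kidney RNA of rats that received adenine together with SZ-A (SZ) was compared with kidney RNA of untreated rats (NC), to describe which differences from the untreated state were present while the drug was given. The NC rats had no treatment, and the SZ rats were dosed daily with 100 mg/kg adenine and, in addition, 300 mg/kg SZ-A. Another group, CKD, was given the adenine dose alone and stands beside the other 2 for reference. Each group had 6 libraries from kidneys. No group given SZ-A without adenine was analysed here, and the strain, sex, age, length of dosing and chemical nature of SZ-A are not stated in the labels. The genes were those with a value of at least 1 FPKM (fragments scaled to gene length and library size) in at least 6 of the 18 libraries, which held for 13851 of the 32116 genes in the table.

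Adenine given in excess is metabolised to a poorly soluble purine that forms crystals in the tubules, and the crystals injure the tubular epithelium. Injured proximal tubule cells lose part of their transport genes and switch on injury genes, while macrophages and lymphocytes enter the interstitium and fibroblasts lay down matrix. The distal nephron, which reclaims salt, secretes acid and makes uromodulin and epidermal growth factor, is often affected along with the proximal tubule.

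Depth was even, at 15354358 to 18532375 recovered reads per library. Genes that define kidney cells were abundant in NC, among them the phosphate transporter Slc34a1 with a median of 1632 FPKM and uromodulin (Umod) with 879.5. Markers of urothelium and adrenal gland summed to 1.02 to 2.05 FPKM per NC library and 0.325 to 1.62 per SZ library over 9 genes, 1 of them at 0 throughout and none expressed enough to be tested. The mitochondrial chromosome accounted for 14.0% of SZ reads (SD 2.83, n = 6) and 19.4% in NC (SD 3.28, n = 6; exact permutation p = 0.015, adjusted p = 0.027 over 7 library measures). SZ 3 stood apart from the other SZ libraries: relative to each gene's mean over the 18 libraries, its log2 values changed with gene length by a slope of -0.248 per doubling of length, against 0.0555 to 0.107 in the other SZ libraries and 0.0167 to 0.115 in NC. In CKD the slope was likewise below 0 in CKD 5 (-0.312), CKD 2 (-0.211) and CKD 1 (-0.100), so comparisons of SZ with CKD also hold such libraries. SZ 3 was the highest SZ library for 745 of the 1726 genes called higher and the lowest for 426 of the 1193 called lower, so counts are also given without it. Whether the 6 libraries of a group are 6 animals is not in the labels, and every p-value reflects the variation among libraries, part of which may be technical. In whole-kidney RNA, fewer cells of a type and less RNA per cell cannot be told apart.

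The SZ kidneys differed from the untreated kidneys in 2919 of 13851 genes, 21.1% of those tested (limma, adjusted p under 0.05). Of these, 1726 were higher in SZ (12.5%) and 1193 were lower (8.61%). Among the called genes, 527 were at least 1 log2 unit higher and 155 at least 1 log2 unit lower, where a log2 difference is that of log2(FPKM + 1). The 6 SZ values lay wholly outside the range of the 6 NC values for 2016 genes (14.6%), above it for 1227 and below it for 789. Without SZ 3, 1626 genes were called higher and 1051 lower. The number of lower genes was 735 without SZ 5, 768 without NC 1 and 777 without NC 3. The filter bears on such counts: 1694 genes passed it only through the 12 CKD and SZ libraries, 682 of them called higher, and 136 only through the 6 NC libraries, 97 of them called lower. A gene of the first kind lies under 1 FPKM in at least 1 NC library by construction, so counts for the lists most affected are also given without such genes. Elsewhere the higher calls of a list can still include genes of this kind, such as Hk3, Trpv6 and Csf3r. Counts of list members below are to be read against 12.5% higher and 8.61% lower over all tested genes.

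**Figure D1:**
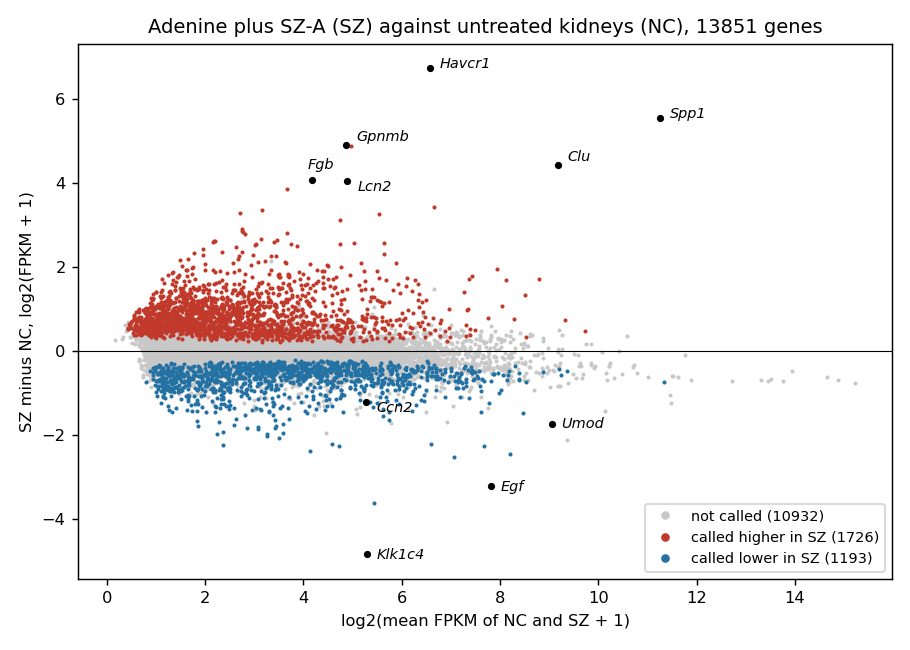
Each point is 1 of the 13851 tested genes, with the log2 of its mean FPKM over NC and SZ (plus 1) on the horizontal axis and the log2 difference SZ minus NC on the vertical axis; red genes were called higher in SZ (1726), blue genes lower (1193) and grey genes were not called. Havcr1 lies highest at 6.73 and Klk1c4 lowest at -4.84.

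The deposited scaling kept the median gene near NC, with a median log2 difference of -0.035. Rescaling each library to the same FPKM sum (TPM) moved that median to 0.24 and the split to 3544 higher and 254 lower. Plain library totals moved it to 0.15, with 2861 higher and 379 lower, and a sum without the 20 most abundant genes to 0.071, with 2266 higher and 541 lower. The 20 most abundant genes took 18.7% of reads in SZ (SD 2.80) and 24.1% in NC (SD 2.76; exact permutation p = 0.013, adjusted p = 0.027). Differences below are on the deposited scale, and a small lower value in SZ holds relative to the median gene.

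Tubular injury genes stood far above the untreated level. Of 27 tested genes of tubular injury and dedifferentiation, 21 were higher in SZ and 0 lower. The median log2 difference of the 27 was 1.41, against -0.035 over all genes, and in 18 of them all 6 SZ values lay above all NC values. Havcr1, Lcn2 and Plaur passed the filter only through CKD and SZ, and all 3 were called higher. The other 24 held 18 higher and 0 lower (median 1.41). Havcr1 encodes KIM-1, which damaged proximal tubule cells place on their surface (chromosome 10, 31119088 to 31151698, plus strand, build mRatBN7.2). Its level ran from 0.128 to 1.13 FPKM in NC (median 0.775) and from 92.5 to 305 FPKM in SZ (median 183), a log2 difference of 6.73 (SE 0.27, adjusted p = 1.5e-11). In CKD it was 155 to 295 FPKM (median 236), and SZ minus CKD was -0.37 (SE 0.27, adjusted p = 0.38). No SZ library approached the NC range, and the SZ and CKD ranges overlapped.

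Osteopontin (Spp1), a secreted phosphoprotein that binds calcium and attracts macrophages, ran from 34.1 to 193 FPKM in NC (median 130.4) and from 2724 to 7121 FPKM in SZ (median 4869.5), a difference of 5.55 (SE 0.35, adjusted p = 1.1e-08). Clusterin (Clu), a chaperone released by stressed epithelium, lay between 26.6 and 87.8 FPKM in the NC libraries (median 43.5) and between 648 and 2088 FPKM in the SZ libraries (median 949), a difference of 4.42 (SE 0.30, adjusted p = 1.9e-08). Both genes were far above NC in every SZ library. Lcn2, which encodes the siderophore-binding protein NGAL, ran from 0.714 to 3.50 FPKM in NC (median 2.19) and from 22.9 to 125 FPKM in SZ (median 50.1), a difference of 4.05 (SE 0.45, adjusted p = 8.5e-06). Vimentin (Vim), an intermediate filament of mesenchymal and dedifferentiated cells, lay between 30.1 and 48.3 FPKM in the NC libraries (median 37.1) and between 72.8 and 198 FPKM in the SZ libraries (median 106), a difference of 1.61 (SE 0.25, adjusted p = 1.9e-04). Vim also stood below CKD, where it was 204 to 639.8 FPKM (median 378), and SZ minus CKD was -1.61 (SE 0.25, adjusted p = 0.0024). The keratin Krt18 differed from NC by 1.92 log2 units, the hyaluronan receptor Cd44 by 2.60 and the annexin Anxa2 by 1.79, all called. Sox9, Gdf15, Plau, Prom1, Itgb6 and Cryab were the 6 members not called.

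**Figure D2:**
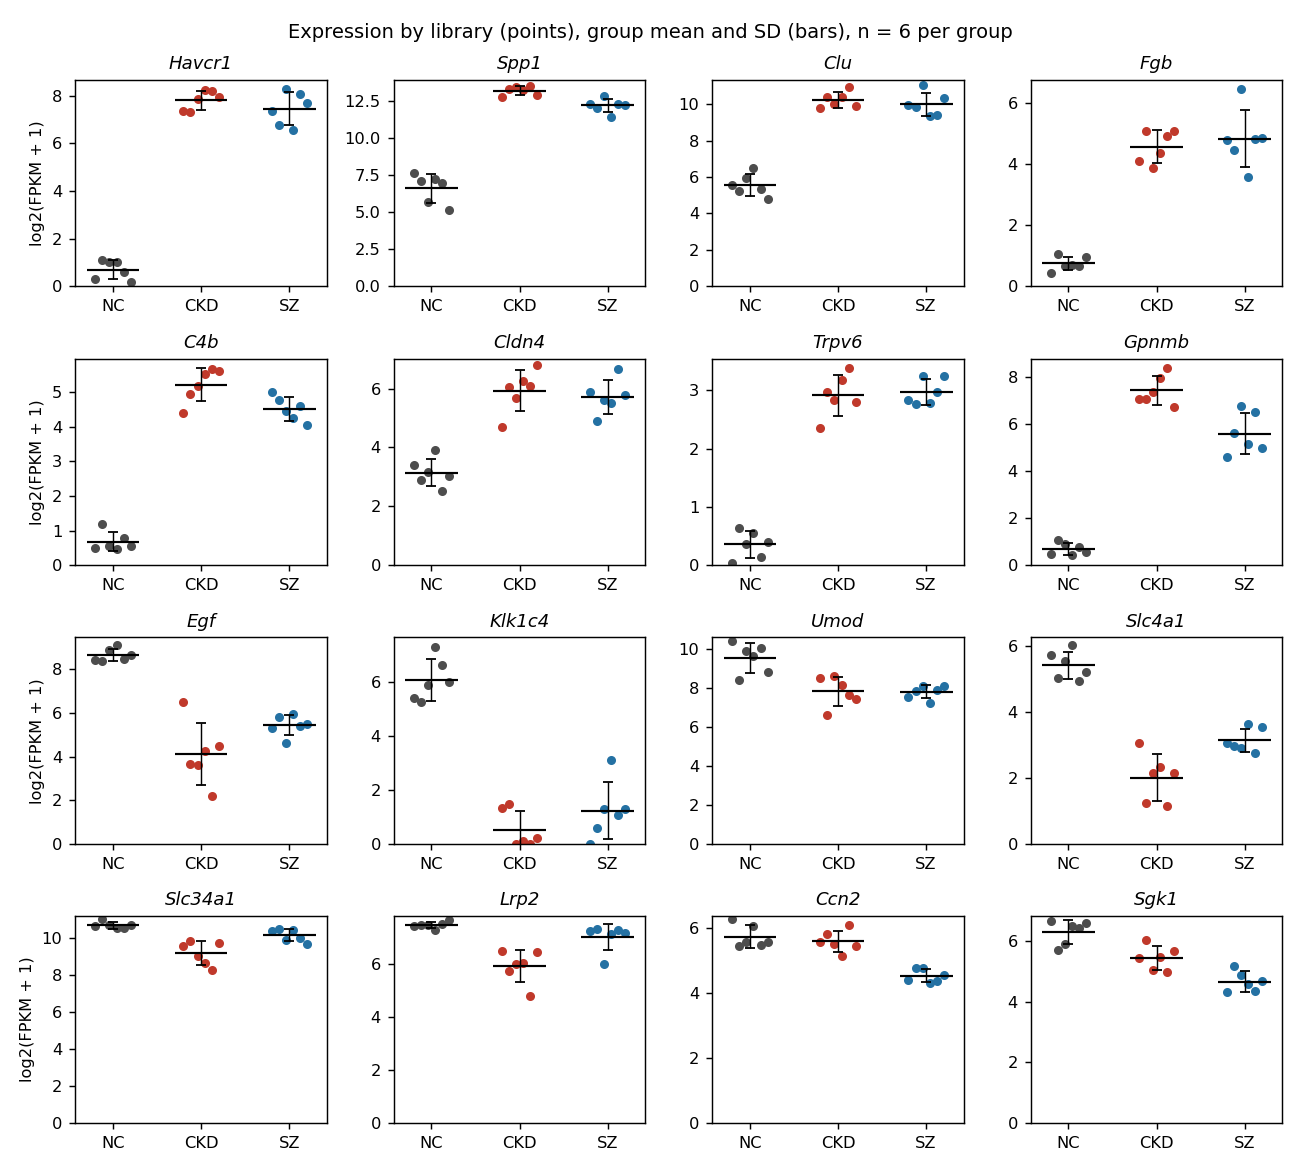
Points give log2(FPKM + 1) of 16 genes in each library of NC, CKD and SZ, and bars give the mean and SD of the 6 libraries of a group. Havcr1, Spp1, Clu, Fgb, C4b, Cldn4, Trpv6 and Gpnmb have all SZ points above all NC points, Egf, Klk1c4, Umod, Slc4a1, Ccn2 and Sgk1 have all SZ points below, and Slc34a1 and Lrp2 were not called.

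Several genes of the acute phase, which the liver makes in bulk, were higher in the SZ kidneys. Of 13 genes of the fibrinogen and acute phase list in the table, 5 did not pass the expression filter, and 5 of the 8 that did (A2m, Fgb, Fgg, Hpx and Lbp) passed only through the CKD and SZ libraries, so that the 8 higher calls (median 1.99) are partly fixed by the filter. The other 3, which NC alone would have passed, were also called higher. Fibrinogen consists of 3 chains encoded by Fga, Fgb and Fgg. Fgb ran from 0.359 to 1.08 FPKM in NC (median 0.618) and from 11.1 to 87.4 FPKM in SZ (median 26.9), a difference of 4.08 (SE 0.33, adjusted p = 3.0e-07). Fga lay between 4.53 and 10.1 FPKM in the NC libraries (median 6.69) and between 23.8 and 134 FPKM in the SZ libraries (median 101), a difference of 3.26 (SE 0.36, adjusted p = 8.0e-06). Fgg ran from 0.0334 to 0.333 FPKM in NC (median 0.0854) and from 2.07 to 13.2 FPKM in SZ (median 5.60), a difference of 2.60 (SE 0.31, adjusted p = 1.6e-05). All 3 chains had SZ ranges above NC, and the highest SZ value of Fgb, 87.4 FPKM in SZ 3, was above every CKD value (13.7 to 33.3 FPKM). Ceruloplasmin (Cp), a copper-carrying ferroxidase, lay between 6.62 and 21.0 FPKM in the NC libraries (median 13.4) and between 49.9 and 65.4 FPKM in the SZ libraries (median 54.0), a difference of 2.11 (SE 0.26, adjusted p = 2.3e-05).

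Complement genes were also higher, with 17 of 19 tested members higher and 1 lower (median 1.46). Of the 19, 5 passed the filter only through CKD and SZ. Among the 14 that would pass on NC alone and on CKD and SZ alone, 12 were higher and 1 lower (median 1.46). C4b ran from 0.383 to 1.31 FPKM in NC (median 0.476) and from 15.7 to 31.1 FPKM in SZ (median 22.2), a difference of 3.85 (SE 0.21, adjusted p = 1.0e-09). Its near-identical neighbour C4a lay between 9.02 and 26.8 FPKM in the NC libraries (median 15.3) and between 81.6 and 268 FPKM in the SZ libraries (median 195), a difference of 3.42 (SE 0.30, adjusted p = 7.5e-07), and reads of the pair cannot be assigned with certainty. C3, the component on which the pathways converge, ran from 2.19 to 4.75 FPKM in NC (median 3.90) and from 13.5 to 26.9 FPKM in SZ (median 18.9), a difference of 2.11 (SE 0.27, adjusted p = 3.3e-05). Cfi, the protease that inactivates C3b and C4b, lay between 0.543 and 1.49 FPKM in the NC libraries (median 0.668) and between 5.89 and 15.1 FPKM in the SZ libraries (median 9.20), a difference of 2.47 (SE 0.21, adjusted p = 4.0e-07). These 4 genes were higher in every SZ library than in any NC library, which held for 14 of the 19 members. The member that moved the other way, named for that reason, was Cd59, a membrane inhibitor of the terminal complex, at -0.57 (SE 0.18, adjusted p = 0.026). That call was lost when NC 1, NC 3, NC 4 or NC 5 was left out (log2 difference from -0.54 to -0.53, adjusted p from 0.057 to 0.061), and under the 3 rescalings (adjusted p from 0.087 to 0.26).

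Macrophage markers were higher in SZ for 22 of 23 tested genes, with a median of 1.57 and summed levels of 905 to 2019 FPKM per SZ library over 24 genes, against 282 to 634 in NC and 2002 to 4892 in CKD. Of the 23, 8 passed the filter only through CKD and SZ. Among the 15 that would pass on NC alone and on CKD and SZ alone, 15 were higher and 0 lower (median 1.53). Without SZ 3 the count was 20 and the median 1.39. Gpnmb, a glycoprotein of lipid-laden and phagocytic macrophages, ran from 0.341 to 1.10 FPKM in NC (median 0.590) and from 23.2 to 108 FPKM in SZ (median 41.2), a difference of 4.91 (SE 0.34, adjusted p = 2.3e-08). Mmp12, the macrophage elastase, lay between 0.172 and 0.532 FPKM in the NC libraries (median 0.321) and between 4.50 and 34.3 FPKM in the SZ libraries (median 12.1), a difference of 3.36 (SE 0.36, adjusted p = 6.8e-06). Cd68, a lysosomal marker of macrophages, ran from 1.73 to 4.92 FPKM in NC (median 3.38) and from 11.4 to 39.8 FPKM in SZ (median 14.7), a difference of 2.13 (SE 0.30, adjusted p = 7.0e-05). Lyz2, the macrophage lysozyme, lay between 78.5 and 149 FPKM in the NC libraries (median 143) and between 298 and 672 FPKM in the SZ libraries (median 382), a difference of 1.70 (SE 0.21, adjusted p = 2.4e-05). These 4 genes separated SZ from NC completely. The marker not called was the haemoglobin scavenger receptor Cd163, at 0.0271 to 0.145 FPKM in NC and 0.139 to 1.35 in SZ, which was not called (difference 0.48, SE 0.24, adjusted p = 0.17, 95% interval -0.03 to 1.0). Cd163 was called higher with a pseudocount of 0.1 (difference 1.68), in the fit of the NC and SZ libraries alone, with array weights and by the rank sum test (adjusted p from 0.011 to 0.031).

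Against CKD, 21 of the 23 macrophage markers were lower in SZ, where 6.82% of all tested genes were called lower, 4.16% higher and 11.0% in either direction. The total of such calls was 533 without SZ 4 and 3058 without SZ 3, against 1521. No marker of the list was called higher in SZ than in CKD. Gpnmb was 106 to 336 FPKM (median 149) in CKD, and SZ minus CKD was -1.84 (SE 0.34, adjusted p = 0.0048). Lyz2 was 716 to 1381 FPKM (median 987) in CKD, and the difference was -1.27 (SE 0.21, adjusted p = 0.0032).

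T and NK cell markers were higher in part. Of 16 tested 10 were higher and 0 lower (median 0.68), and 9 were called without SZ 3. Of the 16, 13 passed the filter only through CKD and SZ. Among the 3 that would pass on NC alone and on CKD and SZ alone, 1 was higher and 0 lower (median 0.19). The T cell receptor component Cd3g ran from 0.584 to 1.12 FPKM in NC (median 0.887) and from 2.83 to 5.35 FPKM in SZ (median 4.49), a difference of 1.46 (SE 0.22, adjusted p = 1.4e-04), and the adhesion receptor Cd2 lay between 0.512 and 1.24 FPKM in the NC libraries (median 0.789) and between 2.07 and 4.69 FPKM in the SZ libraries (median 2.88), a difference of 1.14 (SE 0.18, adjusted p = 2.4e-04). Both had SZ ranges above NC. Klrb1 was at 0 in every NC and SZ library. Only 4 B and plasma cell markers and 4 neutrophil and mast cell markers were expressed enough to be tested, and 1 of each list was called, both higher. The B cell adaptor Blnk differed by 0.70 (SE 0.16, adjusted p = 0.0037). The G-CSF receptor Csf3r differed by 0.47 (SE 0.15, adjusted p = 0.036), a call lost when NC 1, NC 3, NC 4, NC 5, SZ 1, SZ 2 or SZ 6 was left out (log2 difference from 0.40 to 0.47, adjusted p from 0.057 to 0.09) and without a low-value filter (adjusted p = 0.051).

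Of 37 cytokine, chemokine and NF-kB genes, 23 were higher and 1 lower (median 0.90). Of the 37, 15 passed the filter only through CKD and SZ. Among the 21 that would pass on NC alone and on CKD and SZ alone, 14 were higher and 0 lower (median 0.86). The interleukin Il19 was almost unread in NC, at 0 to 0.244 FPKM, and lay between 2.41 and 15.3 in SZ (median 12.4), a difference of 3.28 (SE 0.31, adjusted p = 1.5e-06). Its CKD values were 23.0 to 65.9 FPKM (median 37.6), all above every SZ value, and SZ minus CKD was -1.84 (SE 0.31, adjusted p = 0.0034). Ccl2, which draws monocytes, lay between 1.33 and 6.01 FPKM in the NC libraries (median 2.31) and between 10.8 and 25 FPKM in the SZ libraries (median 16.9), a difference of 2.25 (SE 0.26, adjusted p = 9.8e-06). Il1rn, the antagonist of the interleukin-1 receptor, ran from 0.377 to 0.945 FPKM in NC (median 0.601) and from 5.95 to 20.3 FPKM in SZ (median 8.03), a difference of 2.79 (SE 0.30, adjusted p = 7.0e-06). Among 25 interferon and antigen presentation genes 15 were higher and 0 lower (median 0.84). The filter was passed only through CKD and SZ by 6 of the 25, of which 4 were called higher. The 19 that would pass on NC alone and on CKD and SZ alone held 11 higher and 0 lower (median 0.835). The transcription factors Irf1 and Irf8 differed by 1.61 (SE 0.23, adjusted p = 7.9e-05) and 1.01 (SE 0.14, adjusted p = 6.7e-05), and their SZ ranges lay above NC. The cytokine list's lower member, Ptgs2, is taken up with the distal nephron.

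Promoters of 4 genes of the injury and immune groups are shown because they hold matches to motifs of factors that act in inflamed tissue. They come from RefSeq on the build GRCr8, cover 250 bases before and 50 after the start of the gene, and read 5′ to 3′ with the matched motif in capitals. Gpnmb lies at chr4:79340878-79341177 (plus strand), Fgb at chr2:170700826-170701125 (minus strand), Cd68 at chr10:54882392-54882691 (minus strand) and Il1rn at chr3:27520072-27520371 (plus strand). The capitals mark TGANTCA, the AP-1 motif, in the first 3 sequences, and an NF-kB motif in the last.
Gpnmb: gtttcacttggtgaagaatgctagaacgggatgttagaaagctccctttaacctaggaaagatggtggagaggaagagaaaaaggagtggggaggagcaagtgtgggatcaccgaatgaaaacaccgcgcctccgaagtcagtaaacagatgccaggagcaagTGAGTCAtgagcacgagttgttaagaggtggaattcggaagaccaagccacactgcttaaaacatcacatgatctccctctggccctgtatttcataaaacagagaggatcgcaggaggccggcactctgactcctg
Fgb: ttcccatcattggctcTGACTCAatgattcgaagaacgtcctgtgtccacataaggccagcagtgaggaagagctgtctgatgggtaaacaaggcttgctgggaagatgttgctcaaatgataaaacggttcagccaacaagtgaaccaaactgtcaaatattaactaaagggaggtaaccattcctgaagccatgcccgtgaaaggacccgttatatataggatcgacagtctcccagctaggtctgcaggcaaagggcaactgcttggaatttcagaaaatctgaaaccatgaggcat
Cd68: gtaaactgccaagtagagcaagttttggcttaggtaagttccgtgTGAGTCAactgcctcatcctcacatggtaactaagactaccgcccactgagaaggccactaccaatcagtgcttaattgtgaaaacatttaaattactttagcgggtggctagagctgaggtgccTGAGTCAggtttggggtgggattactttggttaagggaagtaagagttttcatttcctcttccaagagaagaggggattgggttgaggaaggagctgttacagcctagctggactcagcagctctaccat
Il1rn: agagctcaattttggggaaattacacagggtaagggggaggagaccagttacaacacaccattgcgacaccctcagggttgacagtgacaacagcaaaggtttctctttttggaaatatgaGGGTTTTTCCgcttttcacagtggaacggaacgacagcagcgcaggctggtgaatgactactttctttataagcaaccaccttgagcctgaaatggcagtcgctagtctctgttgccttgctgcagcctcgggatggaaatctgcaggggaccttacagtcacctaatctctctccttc

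The AP-1 matches began at -87 in Gpnmb, at -234 in Fgb and at -205 and -80 in Cd68, counted from the gene start, and the NF-kB match in Il1rn at -129. Both strands were searched, and the AP-1 motif reads the same on either. Over the 8766 tested genes with a single RefSeq promoter matched by symbol, TGANTCA occurred in 8.48% of the 1179 promoters of genes called higher, 4.32% of the 718 of genes called lower and 4.34% of the 6869 of genes not called. It occurred in 7.33% of all 24206 promoters in the table. The NF-kB motif occurred in 3.22%, 1.25% and 1.7% of the 3 sets and in 1.5% overall. The STAT motif TTCCNGGAA occurred in 1.87%, 0.975% and 1.19% of the 3 sets, and the HNF4 motif CAAAGTCCA in 0.339%, 0.836% and 0.320%. The HNF1 motif was found in 2, 1 and 9 promoters. These are matches to letters and show no binding. Of the 52 genes among the leading and preselected ones, 39 had a promoter in the table, and Slc5a2, not called, held an AP-1 match at -130.

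Matrix genes were raised broadly. Of 18 collagens 16 were higher and 0 lower (median 1.30), with the same count of 16 without SZ 3. The filter was passed only through CKD and SZ by 4 of the 18, of which 3 were called higher. The 14 that would pass on NC alone and on CKD and SZ alone held 13 higher and 0 lower (median 1.36). Col3a1, a fibrillar collagen of scar tissue, ran from 6.19 to 44.1 FPKM in NC (median 13.3) and from 56.3 to 107 FPKM in SZ (median 79.3), a difference of 2.32 (SE 0.37, adjusted p = 2.2e-04). Col1a1, the main chain of type I collagen, lay between 3.94 and 25.1 FPKM in the NC libraries (median 5.55) and between 20.8 and 40.5 FPKM in the SZ libraries (median 36.8), a difference of 2.03 (SE 0.37, adjusted p = 7.5e-04). Col15a1, a basement membrane collagen, ran from 1.14 to 4.79 FPKM in NC (median 1.65) and from 8.10 to 15.1 FPKM in SZ (median 13.7), a difference of 2.13 (SE 0.31, adjusted p = 9.1e-05). Col3a1 and Col15a1 separated the groups, while the highest NC value of Col1a1 lay within the SZ range. Against CKD, 9 of the 18 collagens were lower in SZ, where 6.82% of all tested genes were called lower. For Col3a1 SZ minus CKD was -1.36 (SE 0.37, adjusted p = 0.026). The glomerular collagen Col4a3, named because it went the other way, was not called at -1.07 (SE 0.40, adjusted p = 0.062), although its SZ values, 2.66 to 18.8 FPKM, all lay below NC (20.7 to 32.2). It was called lower in 6 alternatives, without CKD 5 and with the correction for gene length among them.

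Among 23 matrix glycoproteins and crosslinking enzymes 15 were higher and 1 lower (median 1.0). Of the 23, 7 passed the filter only through CKD and SZ. Among the 16 that would pass on NC alone and on CKD and SZ alone, 10 were higher and 1 lower (median 0.82). Fibronectin (Fn1) lay between 7.03 and 17.8 FPKM in the NC libraries (median 9.07) and between 32.9 and 54.1 FPKM in the SZ libraries (median 43.2), a difference of 1.99 (SE 0.24, adjusted p = 2.1e-05). Tenascin C (Tnc) ran from 0.198 to 0.902 FPKM in NC (median 0.418) and from 2.72 to 6.80 FPKM in SZ (median 5.51), a difference of 2.09 (SE 0.24, adjusted p = 1.1e-05). Periostin (Postn), a matrix protein of fibrotic tissue, was at most 0.0951 FPKM in NC and between 0.567 and 4.26 in SZ, a difference of 1.28 (SE 0.24, adjusted p = 8.8e-04). All CKD values of Postn, 5.64 to 13.0 FPKM (median 6.72), lay above SZ, and SZ minus CKD was -1.72 (SE 0.24, adjusted p = 0.0021).

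Of 17 matrix proteases and their inhibitors 14 were higher and 1 lower (median 1.22), and 12 and 0 without SZ 3. Of the 17, 6 passed the filter only through CKD and SZ. Among the 11 that would pass on NC alone and on CKD and SZ alone, 8 were higher and 1 lower (median 1.13). Timp1, an inhibitor of metalloproteinases, ran from 2.89 to 7.24 FPKM in NC (median 4.13) and from 25 to 75.0 FPKM in SZ (median 48.0), a difference of 3.11 (SE 0.28, adjusted p = 7.5e-07). The gelatinase Mmp9 was the lower one, at -0.91 (SE 0.29, adjusted p = 0.031). Its call was lost when NC 2, NC 3, NC 4, SZ 1, SZ 3 or SZ 4 was left out (log2 difference from -0.90 to -0.75, adjusted p from 0.054 to 0.076), and in 6 other alternatives, the 3 rescalings and the rank sum test among them.

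Markers of the cells that make and surround the matrix were next examined. Of 14 fibroblast and mural cell markers 5 were higher and 0 lower (median 0.25). The PDGF receptor Pdgfrb ran from 6.10 to 12.6 FPKM in NC (median 7.94) and from 16.1 to 20.1 FPKM in SZ (median 17.8), a difference of 1.01 (SE 0.18, adjusted p = 7.6e-04). S100a4 differed by 1.5 (SE 0.31, adjusted p = 0.0022). Acta2, the smooth muscle actin of mural cells and myofibroblasts, lay between 15.4 and 21.9 FPKM in the NC libraries (median 19.4) and between 14.7 and 35.0 FPKM in the SZ libraries (median 20.1) and was not called (difference 0.15, SE 0.24, adjusted p = 0.71, 95% interval -0.36 to 0.66). The Acta2 ranges overlapped throughout. In the TGF-beta and BMP list 6 of 21 genes were higher and 3 lower (median 0.20). The filter was passed only through CKD and SZ by 5 of the 21, Tgfb2 among them, and 4 of these were called higher. The 16 that would pass on NC alone and on CKD and SZ alone held 2 higher and 3 lower (median 0.11). The ligands Tgfb1 and Tgfb2 differed by 1.39 (SE 0.29, adjusted p = 0.002) and 1.17 (SE 0.21, adjusted p = 7.2e-04). The lower ones, named because they went against the list, were the inhibitors Smad7 (-0.62), Bambi (-0.51) and Smad6 (-0.36). All 3 lost the call under TPM scaling (adjusted p from 0.13 to 0.59), the call of Bambi was lost when NC 1 was left out (log2 difference of -0.44, adjusted p = 0.053), and that of Smad6 was lost when NC 1, NC 2, NC 3, NC 4, NC 5, SZ 2, SZ 3 or SZ 5 was left out (log2 difference from -0.38 to -0.32, adjusted p from 0.051 to 0.095).

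**Figure D3:**
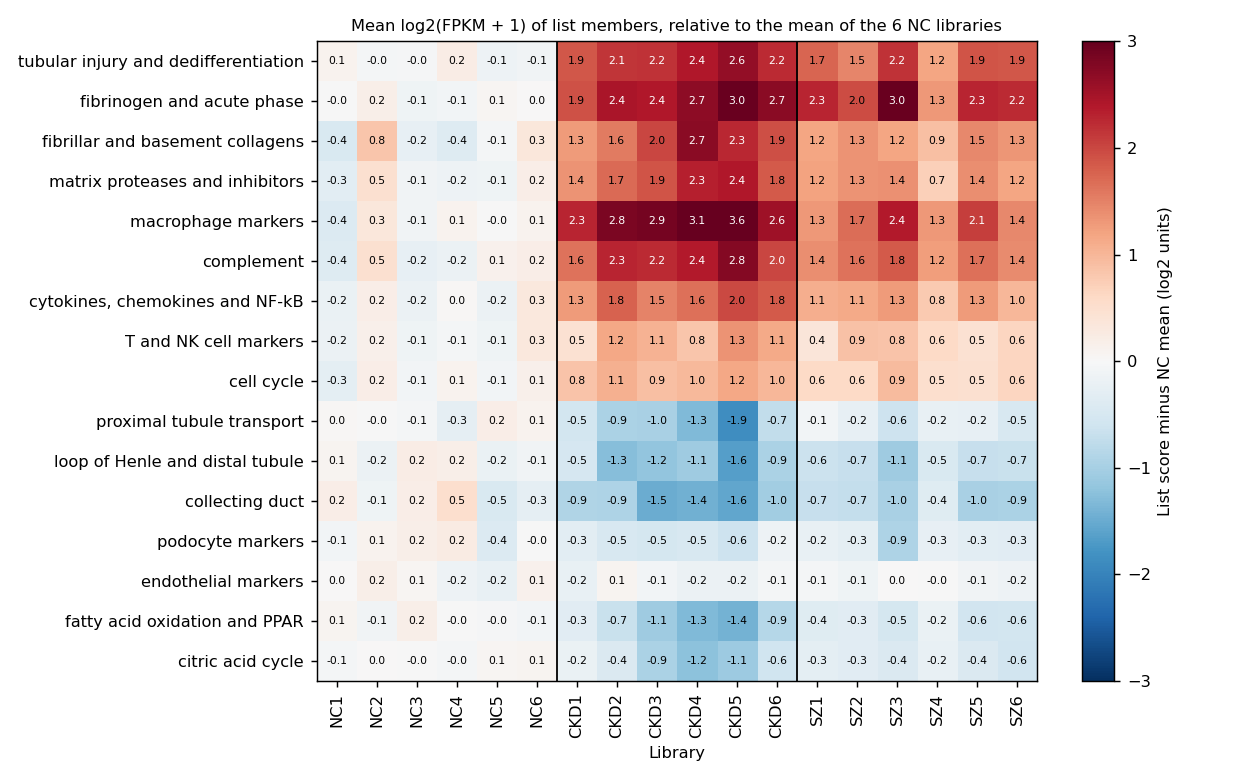
Each cell gives the mean log2(FPKM + 1) of a gene list in 1 library minus the mean of the 6 NC libraries, for 16 lists (rows) and 18 libraries (columns). Injury, matrix, macrophage and complement lists are above 0 in all 6 SZ libraries, the loop, distal and collecting duct lists are below 0 in all 6, and the endothelial list stays near 0.

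Cycling and death genes were called higher in part. Of 26 tested cell cycle genes 19 were higher and 1 lower (median 0.70). Of the 26, 14 passed the filter only through CKD and SZ. Among the 12 that would pass on NC alone and on CKD and SZ alone, 6 were higher and 1 lower (median 0.29). The replication helicase subunits Mcm3 and Mcm5 differed by 1.52 (SE 0.17, adjusted p = 9.8e-06) and 1.25 (SE 0.15, adjusted p = 1.4e-05). The proliferation marker Mki67 ran from 0.450 to 1.93 FPKM in NC (median 1.16) and from 2.26 to 3.02 FPKM in SZ (median 2.72), a difference of 0.80 (SE 0.16, adjusted p = 0.0014). The SZ ranges of all 3 lay above NC. The lower member was Tyms, thymidylate synthase, at -0.43 (SE 0.15, adjusted p = 0.045), a call lost when NC 2, NC 3, NC 4, NC 6, CKD 2, CKD 6, SZ 1, SZ 2, SZ 3, SZ 5 or SZ 6 was left out (log2 difference from -0.46 to -0.34, adjusted p from 0.05 to 0.1), without a low-value filter, under the replicate block and under the 3 rescalings.

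Of 25 cell death, p53 and senescence genes 15 were higher and 0 lower (median 0.77). The filter was passed only through CKD and SZ by 6 of the 25, and all 6 were called higher. The 19 that would pass on NC alone and on CKD and SZ alone held 9 higher and 0 lower (median 0.51). The necroptosis kinase Ripk3 ran from 1.16 to 1.72 FPKM in NC (median 1.43) and from 2.80 to 6.75 FPKM in SZ (median 4.93), a difference of 1.21 (SE 0.16, adjusted p = 4.7e-05), and its SZ range lay above NC. The cell cycle inhibitor Cdkn1a lay between 1.60 and 4.18 FPKM in the NC libraries (median 3.21) and between 4.06 and 10.2 FPKM in the SZ libraries (median 5.06), with overlapping ranges and a difference of 0.78 (SE 0.27, adjusted p = 0.048). Its call was lost when NC 1, NC 2, NC 3, NC 5, CKD 2, CKD 3, CKD 6, SZ 1, SZ 3, SZ 5 or SZ 6 was left out (log2 difference from 0.63 to 0.84, adjusted p from 0.053 to 0.12) and in 5 other alternatives, limma's voom on recovered reads among them.

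The lists with medians furthest below NC were those of the distal nephron. Of 23 genes of the loop of Henle and distal tubule 14 were lower and 2 higher (median -0.85). The number lower was 11 without SZ 3, 8 under TPM scaling and 10 under plain totals. Egf, the growth factor made by the distal tubule, ran from 332 to 550.2 FPKM in NC (median 374) and from 23.7 to 60.7 FPKM in SZ (median 42.8), a difference of -3.22 (SE 0.45, adjusted p = 7.9e-05). CKD values of Egf were 3.64 to 88.4 FPKM (median 14.8), and SZ minus CKD was 1.31 (SE 0.45, adjusted p = 0.067). All 6 SZ values of Egf were below all NC values, and the SZ and CKD ranges overlapped. Summed macrophage markers, given above, were higher in the same SZ libraries, and their part in the lower values of tubule genes was not tested.

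Umod, the abundant urinary glycoprotein of the thick ascending limb, lay between 339.9 and 1369 FPKM in the NC libraries (median 879.5) and between 153 and 278 FPKM in the SZ libraries (median 238), a difference of -1.73 (SE 0.35, adjusted p = 0.0016). Its CKD median was 241 FPKM, close to the SZ median, and SZ minus CKD was -0.04 (SE 0.35, adjusted p = 0.96) with an interval of -0.76 to 0.69. Umod belongs to the genes taken below for the smallest difference from CKD, so this likeness is no finding. The salt cotransporter Slc12a1 ran from 78.8 to 249.9 FPKM in NC (median 162) and from 51.1 to 89.0 FPKM in SZ (median 72.1), a difference of -1.08 (SE 0.26, adjusted p = 0.006), with overlapping ranges, and did not pass the rank sum test (adjusted p = 0.054). The potassium channel Kcnj1 lay between 24.2 and 40.9 FPKM in the NC libraries (median 34.4) and between 11.1 and 17.8 FPKM in the SZ libraries (median 14.8), a difference of -1.14 (SE 0.17, adjusted p = 1.6e-04). The thiazide-sensitive cotransporter Slc12a3 of the distal convoluted tubule was at 73.9 to 202 FPKM in NC and 33.4 to 139 in SZ and was not called (difference -0.88, SE 0.35, adjusted p = 0.081, 95% interval -1.61 to -0.15), but was called lower without NC 5, without SZ 4 and with array weights. Higher members of this list were the prostaglandin receptor Ptger3, at 0.99 (SE 0.17, adjusted p = 5.7e-04), and the calcium channel Trpv5, at 1.5 (SE 0.26, adjusted p = 4.3e-04).

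In the collecting duct list 13 of 20 genes were lower and 0 higher (median -0.76), with 10 lower without SZ 3, 8 under TPM and 9 under plain totals. Slc4a1, the anion exchanger of red cells and of acid-secreting intercalated cells, ran from 29.8 to 63.3 FPKM in NC (median 40.7) and from 5.73 to 11.3 FPKM in SZ (median 7.06), a difference of -2.27 (SE 0.28, adjusted p = 2.0e-05). The ammonia transporter Rhbg lay between 19.1 and 43.3 FPKM in the NC libraries (median 32.1) and between 6.94 and 15.4 FPKM in the SZ libraries (median 10.8), a difference of -1.41 (SE 0.22, adjusted p = 2.1e-04). Foxi1, the transcription factor of intercalated cells, differed by -1.06 (SE 0.21, adjusted p = 0.0015). Slc4a1 and Rhbg had SZ ranges below NC. The proton pump subunit Atp6v1b1 differed by -1.17 and the chloride exchanger Slc26a4 by -0.96, both called. Among genes of the water-reabsorbing principal cells, Aqp2 ran from 93.5 to 257 FPKM in NC (median 169) and from 59.7 to 218 FPKM in SZ (median 162), with ranges that overlapped and a difference of -0.15 (SE 0.36, adjusted p = 0.81, 95% interval -0.90 to 0.61). Its sign turned to 0.16 under TPM scaling and 0.069 under plain totals. Aqp2 does not stand for the rest of the list, in which Fxyd4 and Nr3c2, for example, were called lower. The call of Fxyd4 was lost when NC 1, NC 3, NC 4, SZ 2 or SZ 6 was left out (log2 difference from -0.79 to -0.71, adjusted p from 0.05 to 0.061). That call was also lost under TPM scaling, under plain totals and by the rank sum test. The other erythrocyte markers tested, Hba-a2 and Hbb-b1, were not called, at -0.39 and -0.45.

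The tissue kallikreins, proteases of the connecting tubule encoded in a cluster of near-identical genes on chromosome 1, were lower in the members that could be tested. Of 11 listed genes 7 did not pass the filter, and 1 of the 4 that did, Klk1c9, passed only through NC, where it is high. The other 3 were called lower, with a median of -2.44. Klk1c4 ran from 36.9 to 152 FPKM in NC (median 60.0) and from 0 to 7.67 FPKM in SZ (median 1.28), a difference of -4.84 (SE 0.44, adjusted p = 1.1e-06), and was listed at 0 in 1 SZ library. Klk1b3 lay between 288 and 645 FPKM in the NC libraries (median 500.2) and between 49.3 and 159.7 FPKM in the SZ libraries (median 85.1), a difference of -2.44 (SE 0.37, adjusted p = 1.3e-04), and Klk1 ran from 207 to 440.1 FPKM in NC (median 339.6) and from 44.9 to 128 FPKM in SZ (median 58.1), a difference of -2.26 (SE 0.44, adjusted p = 0.0012). The SZ and NC ranges of these members did not overlap, but reads of such copies may be split among them. Prostaglandin synthase 2 (Ptgs2), which in the kidney is made by the macula densa and medulla, lay between 1.36 and 16.4 FPKM in the NC libraries (median 6.78) and between 0.414 and 1.31 FPKM in the SZ libraries (median 0.535), a difference of -1.97 (SE 0.36, adjusted p = 7.5e-04).

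Of 34 tested genes of proximal tubule transport 2 were higher, 3 were lower and 29 were not called. The share called was 14.7%, against 21.1% of all tested genes. The median was -0.40 in SZ and -1.22 in CKD, both against the same NC libraries. Against CKD 15 of the 34 were higher in SZ and 0 lower, where 4.16% of all tested genes were called higher and 6.82% lower. The total of calls against CKD changed when single libraries were left out, and was 0 by the rank sum test. For 13 of the 34 the 95% interval of SZ minus NC lay within 1 log2 unit of 0 (38.2%, against 81.7% of all tested genes). Slc34a1, the sodium phosphate cotransporter, ran from 1474 to 2105 FPKM in NC (median 1632) and from 834 to 1454 FPKM in SZ (median 1197), a difference of -0.53 (SE 0.25, adjusted p = 0.13) with an interval of -1.05 to -0.02. The organic anion transporter Slc22a6 lay between 482 and 631 FPKM in the NC libraries (median 549) and between 262 and 548 FPKM in the SZ libraries (median 364), a difference of -0.59 (SE 0.28, adjusted p = 0.14) with an interval of -1.17 to -0.0044. All SZ values of Slc34a1 lay below all NC values, although neither gene was called. In the fit of the 12 NC and SZ libraries alone and with array weights both were called, and Slc34a1 also by the rank sum test.

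The endocytic receptors of the brush border were not called. Megalin (Lrp2) ran from 153 to 198 FPKM in NC (median 173) and from 62.2 to 157 FPKM in SZ (median 144), a difference of -0.45 (SE 0.25, adjusted p = 0.21), and its partner cubilin (Cubn) lay between 44.6 and 73.0 FPKM in the NC libraries (median 58.5) and between 32.2 and 76.9 FPKM in the SZ libraries (median 63.2), a difference of 0.03 (SE 0.23, adjusted p = 0.95, 95% interval -0.45 to 0.5). Lrp2 passed the rank sum test (adjusted p = 0.023). The lowest SZ value of Lrp2 was that of SZ 3, 62.2 FPKM. The glucose transporter Slc5a2 differed by 0.09 (SE 0.33, adjusted p = 0.87, 95% interval -0.59 to 0.78). The lower member with the smallest adjusted p was the sodium proton exchanger Slc9a3, which ran from 29.2 to 40.8 FPKM in NC (median 35.3) and from 7.42 to 24.7 FPKM in SZ (median 17.2), a difference of -1.08 (SE 0.30, adjusted p = 0.015), and lost its call under TPM scaling (adjusted p = 0.073). The sulfate transporter Slc13a1 went the other way: it lay between 81.2 and 140.3 FPKM in the NC libraries (median 106) and between 161 and 261 FPKM in the SZ libraries (median 214), a difference of 0.99 (SE 0.18, adjusted p = 8.6e-04). Slc13a1 was also above CKD, where it was 98.0 to 203 FPKM, and SZ minus CKD was 0.61 (SE 0.18, adjusted p = 0.041). The basolateral glucose carrier Slc2a2 differed by 0.74 (SE 0.25, adjusted p = 0.039), a call lost when NC 1, NC 3, NC 4, SZ 1, SZ 2, SZ 4, SZ 5 or SZ 6 was left out (log2 difference from 0.60 to 0.77, adjusted p from 0.052 to 0.099), without a filter, under the block and by the rank sum test.

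Glomerular genes were partly lower. Of 15 podocyte markers 7 were lower and 1 higher (median -0.45), but 4 were lower without SZ 3 and 1 under each of the 3 rescalings. Nephrin (Nphs1) lay between 13.7 and 22.6 FPKM in the NC libraries (median 16.9) and between 3.81 and 13.7 FPKM in the SZ libraries (median 11.4), a difference of -0.78 (SE 0.26, adjusted p = 0.039), a call lost when NC 1, NC 2, NC 3, NC 4, NC 6, SZ 1, SZ 3 or SZ 5 was left out (log2 difference from -0.81 to -0.54, adjusted p from 0.051 to 0.086), without a filter and under the 3 rescalings. The higher member was the mesenchymal factor Tcf21, at 0.56 (SE 0.19, adjusted p = 0.047), a call lost when NC 1, NC 3, NC 4, NC 5, NC 6, CKD 3, CKD 6, SZ 1, SZ 2, SZ 3, SZ 4 or SZ 6 was left out (log2 difference from 0.49 to 0.58, adjusted p from 0.054 to 0.11) and in 6 other alternatives.

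Of 15 tested endothelial markers 2 were lower and 0 were higher (13.3% called, against 21.1% of all genes). For 13 the interval lay within 1 log2 unit of 0, a share of 86.7% that is near the 81.7% of all genes. Pecam1 ran from 18.7 to 28.0 FPKM in NC (median 23.4) and from 18.9 to 27.6 FPKM in SZ (median 23.7), a difference of -0.0061 (SE 0.12, adjusted p = 0.98, 95% interval -0.26 to 0.25). Its sign turned under TPM scaling, at 0.30, and under plain totals, at 0.20. The called genes were Ehd3, a marker of glomerular endothelium, at -0.88 (SE 0.16, adjusted p = 6.5e-04), and the sialoglycoprotein endomucin (Emcn), at -0.62 (SE 0.18, adjusted p = 0.019), which lost its call under TPM and plain totals (adjusted p of 0.1 and 0.069).

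Metabolic genes of the tubule had medians somewhat below NC, and their calls depended on the scaling. Fatty acid oxidation had 8 of 37 genes lower and 0 higher (median -0.44), the citric acid cycle 8 of 21 and 0 (median -0.39), and nuclear genes of oxidative phosphorylation 3 of 26 and 0 (median -0.39). The shares lower were 21.6%, 38.1% and 11.5%, the last near the 8.61% of all genes. On the deposited scale all 6 SZ values lay below all NC values for 9, 15 and 11 genes of the 3 lists. Over all 13851 tested genes this held for 789. The nuclear genes of oxidative phosphorylation differed by -0.62 to -0.25, so every tested member was below NC on that scale. Under TPM scaling 0 of these genes were lower in the 3 lists, and the medians were -0.13, -0.083 and -0.087. Plain totals left 0, 1 and 0 lower, and the citric acid cycle had 5 lower without SZ 3. The intervals lay within 1 log2 unit of 0 for 28, 19 and 24 genes, shares of 75.7%, 90.5% and 92.3% against 81.7% of all genes. The pyruvate dehydrogenase subunit Pdhb ran from 114 to 155 FPKM in NC (median 134) and from 79.2 to 95.6 FPKM in SZ (median 83.8), a difference of -0.64 (SE 0.15, adjusted p = 0.0047), and the mitochondrial carnitine carrier Slc25a20 lay between 58.5 and 71.9 FPKM in the NC libraries (median 62.4) and between 37.2 and 53.8 FPKM in the SZ libraries (median 45.0), a difference of -0.5 (SE 0.13, adjusted p = 0.0096). Both had SZ ranges below NC and lost the call under TPM scaling (adjusted p of 0.055 and 0.14), Slc25a20 also under plain totals. Cpt1a, which admits fatty acids to mitochondria, was not called at -0.24 (SE 0.19, adjusted p = 0.4), and its sign turned to 0.062 under TPM scaling. The mitochondrial coactivator Ppargc1a was not called either, at -0.66 (SE 0.35, adjusted p = 0.19), with the lowest SZ value in SZ 3.

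The 13 mRNAs of the mitochondrial chromosome had a median of -0.69 and 1 call. That gene was Mt-nd6, at -0.74 (SE 0.24, adjusted p = 0.036), a call lost when NC 1, NC 2, NC 3, NC 4, NC 6, SZ 1, SZ 2, SZ 3, SZ 5 or SZ 6 was left out (log2 difference from -0.76 to -0.68, adjusted p from 0.052 to 0.081), without a filter and under the 3 rescalings. None of the 13 intervals lay within 1 log2 unit of 0. The share of mitochondrial reads given above sums these genes with the mitochondrial ribosomal and transfer RNAs. Amino acid, creatine and NAD metabolism had 9 of 30 genes lower and 0 higher (median -0.52), among them Cth, which makes cysteine, at -1.11 (SE 0.29, adjusted p = 0.012). Under TPM scaling 1 of these was lower and 2 were higher. Gluconeogenesis and fructose genes had 2 of 9 lower and 1 higher (median -0.58). Pck1, the first committed enzyme of gluconeogenesis, ran from 2941 to 4959 FPKM in NC (median 3686) and from 1137 to 2866 FPKM in SZ (median 1889) and was not called (difference -1.05, SE 0.40, adjusted p = 0.071, 95% interval -1.89 to -0.20), but was called lower in 5 alternatives, the fit of the NC and SZ libraries alone and the fits without CKD 1 or CKD 5 among them. In glycolysis 3 of 19 genes were higher and 4 lower, or 2 lower without SZ 3. Muscle-type phosphofructokinase (Pfkm) was at -0.62 (SE 0.10, adjusted p = 3.8e-04), and the myeloid hexokinase Hk3 at 1.02 (SE 0.23, adjusted p = 0.0037).

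Of 19 nephron transcription factors 5 were lower and 0 higher (median -0.5). Esrrb, a nuclear receptor of the distal nephron, ran from 1.88 to 5.66 FPKM in NC (median 4.99) and from 0.675 to 1.60 FPKM in SZ (median 1.14), a difference of -1.33 (SE 0.20, adjusted p = 1.4e-04). Hnf4a, the factor that maintains proximal identity, lay between 184 and 205 FPKM in the NC libraries (median 189) and between 119 and 166 FPKM in the SZ libraries (median 131) and was not called (difference -0.5, SE 0.20, adjusted p = 0.076, 95% interval -0.91 to -0.09), although its ranges did not overlap. It was called lower in 6 alternatives: NC and SZ libraries alone, array weights, without CKD 1, without CKD 5, without SZ 3, CKD 2 and CKD 5, and the rank sum test (adjusted p from 0.0012 to 0.03).

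Of 25 antioxidant genes 2 were higher and 1 lower (median -0.27, or 0.037 under TPM scaling), shares of 8% and 4% against 12.5% and 8.61% of all genes. Gpx2, an epithelial glutathione peroxidase, ran from 7.39 to 17.7 FPKM in NC (median 14.4) and from 57.6 to 127 FPKM in SZ (median 79.5), a difference of 2.56 (SE 0.22, adjusted p = 5.1e-07). Haem oxygenase 1 (Hmox1) lay between 1.30 and 6.40 FPKM in the NC libraries (median 3.50) and between 8.44 and 18.1 FPKM in the SZ libraries (median 9.20), a difference of 1.54 (SE 0.27, adjusted p = 5.8e-04). Both separated SZ from NC. The lower gene was the glutathione transferase Gsta3, at -1.26 (SE 0.23, adjusted p = 7.5e-04). Cytochrome P450 and conjugation genes had 2 of 24 higher and 4 lower (median -0.44). Cyp1b1, called higher, passed the filter only through CKD and SZ. Cyp2c11 and Sult1c3, both called lower, passed it only through NC. The 20 that would pass on NC alone and on CKD and SZ alone held 1 higher and 2 lower (median -0.44). Cyp1b1 ran from 0.0384 to 0.470 FPKM in NC (median 0.255) and from 2.75 to 5.24 FPKM in SZ (median 3.75), a difference of 1.93 (SE 0.18, adjusted p = 1.4e-06). The sulfotransferase Sult1c3 lay between 1.51 and 9.87 FPKM in the NC libraries (median 3.64) and between 0.0480 and 0.861 FPKM in the SZ libraries (median 0.510), a difference of -1.79 (SE 0.29, adjusted p = 2.6e-04). Of the iron genes 8 of 14 were higher and 1 lower (median 0.68), led by Lcn2 and Cp above.

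In the mineral handling list 4 of 21 genes were higher and 2 lower (median -0.24, or 0.0095 under TPM scaling). Trpv6, an epithelial calcium channel, ran from 0.0239 to 0.554 FPKM in NC (median 0.306) and from 5.78 to 8.52 FPKM in SZ (median 6.47), a difference of 2.62 (SE 0.16, adjusted p = 5.3e-09). Its CKD values were 4.09 to 9.37 FPKM (median 6.47), and SZ minus CKD was 0.06 (SE 0.16, adjusted p = 0.83) (interval -0.27 to 0.39). Klotho (Kl), the coreceptor for FGF23, lay between 63.2 and 99.6 FPKM in the NC libraries (median 88.6) and between 21.4 and 74.4 FPKM in the SZ libraries (median 70.4) and was not called (difference -0.56, SE 0.35, adjusted p = 0.26, 95% interval -1.29 to 0.16). SZ 3 was far below the other 5 SZ libraries for Kl, whose next lowest value was 52.4 FPKM.

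Genes that handle adenine itself were examined in the purine list, where 4 of 20 genes were higher and 3 lower (median 0.06), and for 18 the interval lay within 1 log2 unit of 0. The share so bounded was 90%, near the 81.7% of all genes, and 35% were called, against 21.1%. These counts depended on the scaling. Under TPM scaling 8 purine genes were higher and 0 lower (median 0.35), under plain totals 7 and 0, and with a scaling without the 20 most abundant genes 5 and 0. Without SZ 3 they were 3 and 2. Aprt, which salvages adenine to AMP, ran from 79.3 to 119.7 FPKM in NC (median 93.0) and from 85.2 to 167 FPKM in SZ (median 99.4), a difference of 0.18 (SE 0.19, adjusted p = 0.55, 95% interval -0.22 to 0.58). Xanthine dehydrogenase (Xdh), which can oxidise adenine, lay between 31.8 and 50.5 FPKM in the NC libraries (median 39.9) and between 38.1 and 64.7 FPKM in the SZ libraries (median 53.2), a difference of 0.30 (SE 0.14, adjusted p = 0.14, 95% interval 0.0047 to 0.59). Neither gene was called, but Xdh was called higher under TPM scaling (0.61), under plain totals (0.51), with array weights and without SZ 3, CKD 2 and CKD 5 (adjusted p from 0.0069 to 0.05). Impdh1, which commits IMP to guanine nucleotides, differed by 0.81 (SE 0.15, adjusted p = 8.8e-04), while its partner Impdh2, like Junb and Isg15, was listed at 0 in all 18 libraries. Such genes are usually expressed, so these zeros may be failed estimates and are not taken as levels.

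Among the remaining lists, lipid, sterol and adipocyte genes had 10 of 23 higher and 0 lower, with the desaturase Scd2 at 0.83 (SE 0.15, adjusted p = 7.7e-04). Lysosome and cathepsin genes had 7 of 20 higher and 0 lower, or 13 and 0 under TPM scaling and 11 and 0 under plain totals. The protease Ctsd ran from 184 to 233 FPKM in NC (median 208) and from 568 to 876 FPKM in SZ (median 635), a difference of 1.72 (SE 0.20, adjusted p = 9.8e-06). Claudin, cadherin and epithelial factor genes had 5 of 20 higher and 0 lower, led by the tight junction gene Cldn4, which lay between 4.76 and 14.0 FPKM in the NC libraries (median 7.53) and between 29.0 and 100.3 FPKM in the SZ libraries (median 50.7), a difference of 2.57 (SE 0.31, adjusted p = 1.9e-05). EGF family and growth factor genes had 9 of 33 higher and 5 lower, or 3 lower without SZ 3. Without the 8 members that passed the filter only through CKD and SZ, 6 of 25 were higher and 5 lower. Hbegf, a ligand of the same receptor as Egf, ran from 1.66 to 2.57 FPKM in NC (median 1.97) and from 3.77 to 6.36 FPKM in SZ (median 4.19), a difference of 0.88 (SE 0.12, adjusted p = 7.9e-05), opposite in sign to Egf.

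Unfolded protein and integrated stress genes had 4 of 20 higher and 0 lower, or 2 and 1 without SZ 3, and asparagine synthetase (Asns) was at 1.39 (SE 0.18, adjusted p = 3.1e-05). Under TPM scaling 10 genes of that list were higher and 0 lower, and under plain totals 9 and 0. Immediate early and heat shock genes had 3 of 17 higher and 1 lower, with a median of 0.18 in SZ and 1.03 in CKD. Prostaglandin and nitric oxide genes had 4 of 17 higher and 1 lower. Hypoxia genes had 0 of 12 higher and 3 lower, and ion pump and FXYD genes 1 of 9 and 3, where Fxyd5 was at 1.64 (SE 0.26, adjusted p = 2.2e-04). The shares lower were 25% and 33.3%, against 8.61% of all genes, and depended on the scaling. Under TPM scaling the hypoxia list had 1 higher and 1 lower, and under plain totals 0 and 1. The ion pump list had 1 higher and 0 lower under both. Clock genes had 1 of 17 higher and 2 lower, and glucocorticoid targets 2 of 15 and 3, against 12.5% higher and 8.61% lower over all genes (5.88% and 11.8% of the clock genes, 13.3% and 20% of the glucocorticoid targets). The clock gene Per1, also a glucocorticoid target, ran from 9.11 to 25 FPKM in NC (median 13.5) and from 2.97 to 6.93 FPKM in SZ (median 3.44), a difference of -1.65 (SE 0.27, adjusted p = 3.2e-04), and its SZ range lay below NC.

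**Figure D4:**
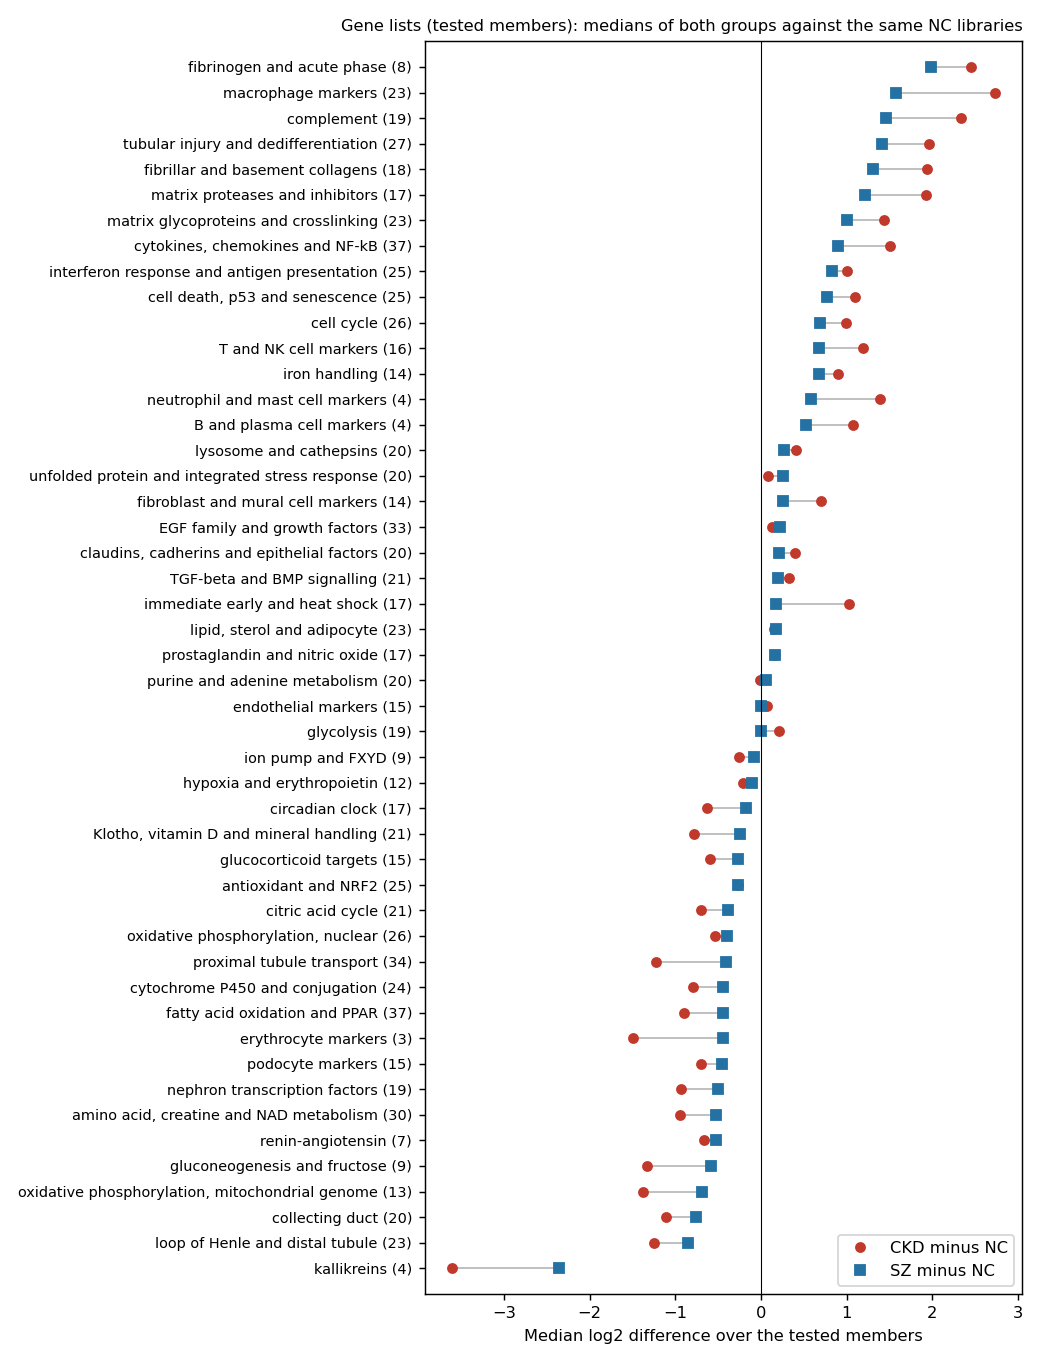
For each of 48 gene lists, with the number of tested members in brackets, the blue square gives the median log2 difference SZ minus NC and the red circle that of CKD minus NC; both use the same NC libraries. Fibrinogen and acute phase (1.99 and 2.45), macrophage (1.57 and 2.73) and complement (1.46 and 2.33) lists lie highest, and kallikreins (-2.35 and -3.61) lowest.

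The medians of both adenine groups against NC are set side by side in the plot of list medians, and since both use the same 6 NC libraries no relation between them is given. Collagens were at 1.30 in SZ and 1.94 in CKD, tubular injury at 1.41 and 1.96, and fibrinogen and acute phase at 1.99 and 2.45. Loop and distal tubule genes were at -0.85 and -1.24, and collecting duct genes at -0.76 and -1.11. Over all genes the medians were -0.035 and -0.040. Of the genes called against NC with a difference of at least 1 log2 unit, those with the smallest difference between SZ and CKD were taken by rule, so their likeness to CKD is no finding. Among them were the nerve growth factor receptor Ngfr, at a median of 0.155 FPKM in NC, 1.5 in SZ and 1.65 in CKD, and Ecrg4, at 40.0, 13.2 and 13.6 FPKM. Against NC they differed by 1.01 (SE 0.19, adjusted p = 0.001) and -1.45 (SE 0.29, adjusted p = 0.0015). Dtx4 (1.11 against NC), Map3k1 (1.05), Sult1c3, Ankrd37 (-1.11) and Umod also belonged to that set, and the call of Map3k1 was lost when SZ 5 or SZ 6 was left out (log2 difference from 0.95 to 0.96, adjusted p from 0.052 to 0.055) and by the rank sum test.

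A small set was called in the same direction against both reference groups, which compares group means and does not require the ranges to be apart. Against NC and CKD alike, 7 genes were called higher and 12 lower in SZ, and both contrasts share the SZ libraries. The matricellular protein Ccn2 (connective tissue growth factor), a target of YAP and TGF-beta signalling, ran from 42.5 to 75.6 FPKM in NC (median 46.5) and from 18.8 to 26.4 FPKM in SZ (median 21.3) and was 34.0 to 67.2 FPKM (median 44.9) in CKD. It differed by -1.20 (SE 0.17, adjusted p = 6.3e-05) from NC and by -1.06 (SE 0.17, adjusted p = 0.0024) from CKD. The kinase Sgk1, induced by mineralocorticoids and glucocorticoids, lay between 50.7 and 101 FPKM in the NC libraries (median 86.7) and between 18.8 and 35.3 FPKM in the SZ libraries (median 23.6) and was 30.4 to 64.3 FPKM (median 42.6) in CKD, with differences of -1.63 (SE 0.20, adjusted p = 2.6e-05) and -0.77 (SE 0.20, adjusted p = 0.024). Ccn2 was below both groups in all 6 SZ libraries, while the SZ and CKD ranges of Sgk1 overlapped. Ccn2 is thus the 1 lower member of the matrix glycoprotein list.

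The heat shock cochaperone Dnajb1 differed by -0.84 (SE 0.16, adjusted p = 0.0014) from NC and -0.67 (SE 0.16, adjusted p = 0.018) from CKD. The nuclear matrix protein Banp differed by -0.92 (SE 0.16, adjusted p = 4.2e-04) and -1.06 (SE 0.16, adjusted p = 0.0021). Rbm5, a splicing regulator, was lower by smaller amounts, -0.30 (SE 0.08, adjusted p = 0.013) and -0.37 (SE 0.08, adjusted p = 0.01), and lost its call against NC under the 3 rescalings (adjusted p from 0.22 to 0.98). Id1, a BMP target, and the repressor Bcl6, both named after their values were seen, were at -1.15 and -1.21 against NC. Among the higher ones the myosin-binding protein Mybpc2 ran from 1.12 to 1.78 FPKM in NC (median 1.31) and from 6.08 to 7.31 FPKM in SZ (median 6.79) and was 2.57 to 6.25 FPKM (median 4.62) in CKD, with differences of 1.70 (SE 0.13, adjusted p = 1.6e-07) and 0.56 (SE 0.13, adjusted p = 0.015). Ism1 differed by 0.71 (SE 0.19, adjusted p = 0.011) and 0.87 (SE 0.19, adjusted p = 0.0098), with its lowest value, 2.35 FPKM, inside the NC range. The ubiquitin ligase gene Ubox5 differed by 0.44 (SE 0.11, adjusted p = 0.0086) and 0.56 (SE 0.11, adjusted p = 0.0071). The splicing factor gene Srsf5 differed by 0.33 (SE 0.11, adjusted p = 0.045) from NC, a call lost when NC 1, NC 3, NC 4, NC 5, CKD 3, CKD 6, SZ 3, SZ 4, SZ 5 or SZ 6 was left out (log2 difference from 0.25 to 0.35, adjusted p from 0.052 to 0.11) and in 4 other alternatives. The count of this set rested on single libraries. It was 24 higher and 20 lower without SZ 3, 4 higher without SZ 5 or SZ 6, 13 higher without CKD 1, 5 lower without SZ 1 or SZ 5 and 6 lower without SZ 4.

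**Figure D5:**
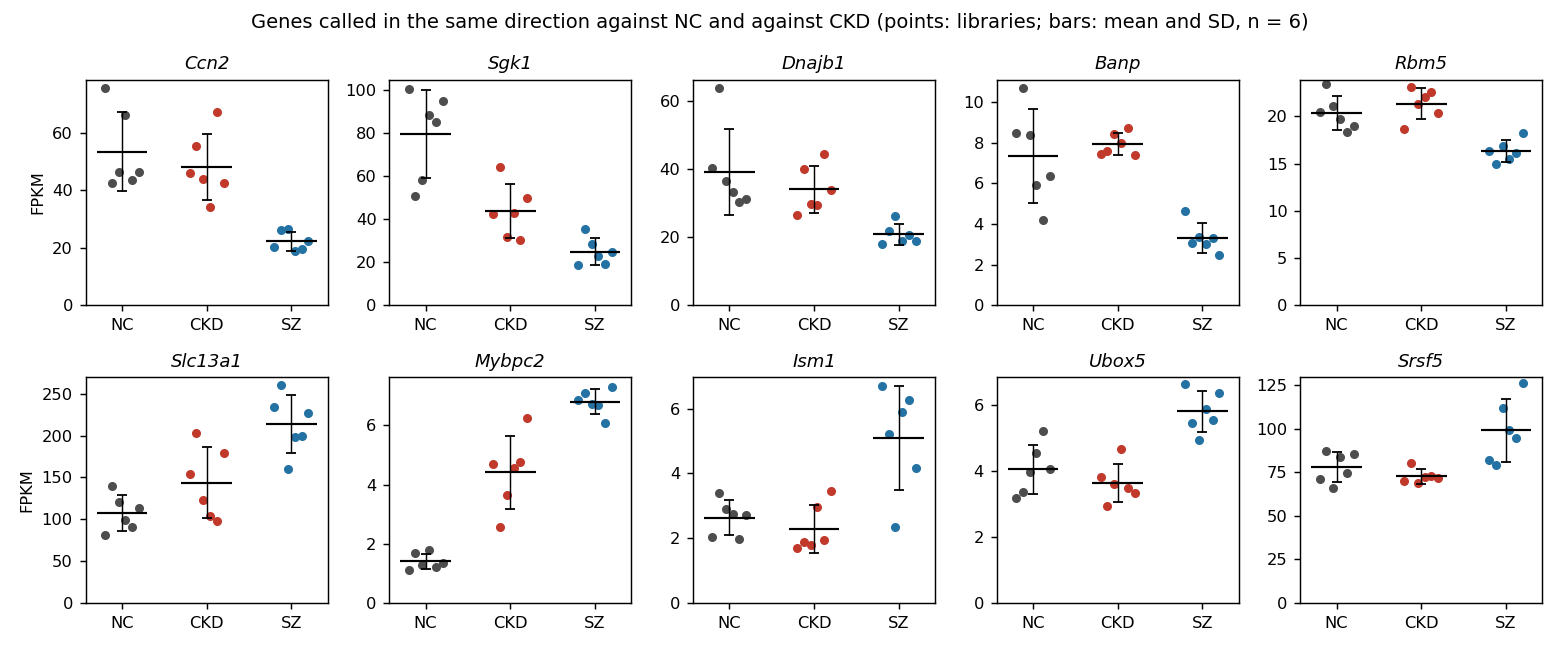
Points give FPKM of 10 genes called in the same direction against NC and against CKD, per library, and bars the mean and SD of the 6 libraries of a group. The upper row holds genes lower in SZ, such as Ccn2 with SZ values of 18.8 to 26.4 FPKM, and the lower row genes higher in SZ, such as Mybpc2 with 6.08 to 7.31 FPKM.

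For most genes the 95% interval of SZ minus NC lay within 1 log2 unit of 0. The pseudocount of 1 shrinks differences of genes at low FPKM, so such genes meet this bound more easily. With a pseudocount of 0.1 it held for 9683 genes. With the pseudocount of 1, used below, the bound held for 11318 of the 13851 genes (81.7%), of which 1374 were still called. Of the 27 tubular injury genes 4 met that bound, of the 23 macrophage markers 1, of the 18 collagens 0 and of the 4 kallikreins 0. The bound held for 13 of 15 endothelial markers and 8 of 20 collecting duct genes. A fold limit of 2, which asks whether a difference is larger than 1 log2 unit, called 46 genes higher and 5 lower.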

How the data were processed

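Per the labels' protocols, RNA was extracted with Trizol and made into libraries with an Illumina TruSeq kit. The authors deposited 1 table of FPKM values for 32116 genes and 18 libraries. HISAT2 2.0.5 and the build mRatBN7.2 are named in the submitters' processing notes, while the program that counted reads, the annotation used and whether strand was used are not given in the sources here. Without strand, overlapping and antisense genes cannot be told apart. Multiplying FPKM by gene length gave whole numbers of a step for 100% of values above 0 (tolerance 0.01), and from these the reads in each library. The library sizes used by the authors averaged 1.04 of these reads in SZ and 0.896 in NC. No column of sample values was left unused.

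Values were tested as log2(FPKM + 1), with a pseudocount of 1, by limma 3.58.1 in R 4.3.3. The model held 3 group means over 18 libraries with an intensity trend, 2-sided, and Benjamini-Hochberg adjustment over 13851 genes. Every adjusted p of a gene is limma's unless the rank sum test is named, at a threshold of 0.05. The pseudocount shrinks differences of genes at low FPKM. Library measures were put to exact 2-sided permutation tests, where 0.0022 is the smallest p possible.

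The 49 gene lists held 1043 symbols, of which 979 were in the table and 873 were tested, and some genes stand in several lists. Lists are described by counts and medians, without a set test. Members and lists were chosen with earlier results of these data known. Named genes are the 8 called genes at each end of the log2 difference (proper symbol, mean FPKM of at least 1, ranges apart), the 2 called members of each list with the smallest adjusted p, 4 per direction that differed least from CKD among those at least 1 log2 unit from NC, 4 per direction called alike against NC and CKD, and 44 fixed genes, 1 of them not tested. Members that moved against their list were named after their values were seen. Some genes that these rules chose are not reported here. Promoters were matched by symbol to RefSeq on GRCr8 and used for letters only.

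Alternatives were a pseudocount of 0.1, other filters and scalings, limma's voom on the recovered reads, only the NC and SZ libraries, array weights, a fit without the trend, robust variance, an exact rank sum test, a limit of 2-fold, a lowess correction for gene length (span 0.3), a block for the replicate number, and omission of libraries. The fit was tested on simulated data with known changes and the same setting of spread for every gene. It called 38 of 100 genes changed 1.5-fold, 100 of 100 changed 4-fold and 14 of 13651 left unchanged. A gene that was not called can thus still differ by an amount of the smaller size.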

Additional observations from a re-analysis of the deposited data

Results flagged for a closer look

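In 440 checks of a group of 6 libraries, 32 held a library whose gap to its nearest neighbour was above Dixon's 95% critical value for its group's range. Chance alone flags about 1 in 20 groups. A list score is the mean log2(FPKM + 1) of the list's tested members. NC 1 stood apart in Ctsz (3.14 FPKM, others 4.69 to 5.59) and Osmr (0.990 FPKM, others 2.35 to 3.34). NC 2 stood apart in the list score of B and plasma cell markers (2.29, others 1.45 to 1.73), Esrrb (1.88 FPKM, others 4.49 to 5.66), Pdia4 (56.6 FPKM, others 30.4 to 32.2) and Ngfr (0.942 FPKM, others 0.125 to 0.344). For NC 2 the same held for Dio3 (0.221 FPKM, others 0 to 0.0763) and Tcf21 (30.9 FPKM, others 12.2 to 15.4). NC 4 stood apart in the list score of neutrophil and mast cell markers (2.06, others 1.02 to 1.27). NC 5 stood apart in Vegfa (38.6 FPKM, others 51.2 to 58.4) and Lif (0.0166 FPKM, others 0.316 to 0.432). NC 6 stood apart in Bcl3 (1.62 FPKM, others 3.0 to 4.04). SZ 2 stood apart in Ptgs2 (1.31 FPKM, others 0.414 to 0.699), Per1 (6.93 FPKM, others 2.97 to 4.14) and Reg3b (6.30 FPKM, others 2.65 to 3.35). SZ 3 stood apart in the slope on gene length (-0.248, others 0.0555 to 0.107), the list score of cell cycle (2.80, others 2.35 to 2.5), the list score of podocyte markers (2.61, others 3.21 to 3.31) and the list score of antioxidant and NRF2 (7.18, others 6.64 to 6.75). For SZ 3 the same held for the list score of EGF family and growth factors (3.21, others 3.54 to 3.66), Scd2 (18.2 FPKM, others 23.4 to 26.9), Map3k1 (3.75 FPKM, others 9.19 to 14.3) and Kl (21.4 FPKM, others 52.4 to 74.5). For SZ 3 the same held for Lrp2 (62.2 FPKM, others 136 to 157), Nphs1 (3.81 FPKM, others 10.6 to 13.7), Ppargc1a (2.47 FPKM, others 8.98 to 15.7) and Col4a3 (2.66 FPKM, others 13.6 to 18.8). SZ 4 stood apart in the list score of matrix proteases and inhibitors (3.21, others 3.69 to 3.90), the list score of immediate early and heat shock (3.76, others 4.24 to 4.44), Tnc (2.72 FPKM, others 5.43 to 6.80) and Il19 (2.41 FPKM, others 8.39 to 15.3). SZ 6 stood apart in reads from ribosomal RNA genes (248 ppm, others 93.8 to 139.6). SZ 3 accounted for 12 of these and NC 2 for 6. SZ 3 also carried an array weight of 0.234, against 1.31 to 2.23 in the other SZ libraries. Whether its slope on gene length plays a part in its values was not tested.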

How the results depend on the processing

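Of 34 alternatives, those that moved the count of genes called in SZ against NC (2919) by more than 1.5 times were a mean FPKM of at least 5 (1627, with 877 higher and 750 lower, over 8491 genes), array weights (5492, with 2716 higher and 2776 lower) and limma's fold limit of 2 (51, with 46 higher and 5 lower, and 243 at an unadjusted p under 0.05). TPM scaling gave 3544 higher and 254 lower, plain totals 2861 and 379, a scaling without the 20 most abundant genes 541 lower, and the NC and SZ libraries alone 1917 lower. Leaving out 1 library gave 2186 to 3365 calls, 1451 to 1914 of them higher and 735 to 1451 lower. SZ against CKD (1521) ranged from 533 to 3058 without 1 library and gave 2830 calls with array weights. It gave 0 under limma's fold limit (41 at an unadjusted p under 0.05) and 0 by the exact rank sum test (3052). Genes called in the same direction against both groups (7 higher, 12 lower) ranged from 4 to 24 higher and 5 to 20 lower without 1 library. They numbered 3 higher at a mean of at least 5, 13 under plain totals, 17 with the length correction and 27 without SZ 3, CKD 2 and CKD 5. Array weights gave 42 higher and 48 lower, and the fold limit and the rank sum test 0 and 0. Intervals within 1 log2 unit held for 20935 genes without a filter (23814 genes), 7078 at a mean of at least 5, and 10993 to 11473 without 1 library. The causes were not tested, apart from the number of genes, which a filter sets.

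Of the 148 named genes that were called, 115 could be tried in all 34 alternatives, and 85 of these kept the call in all apart from the fold limit. The other 33 did not reach a mean FPKM of 5 and were tried in 33, where 29 kept it. In the alternatives tried 0 changed direction. Of 18 named genes that were not called, 9 were called in at least 1 alternative (Cd163, Slc34a1, Slc22a6, Lrp2, Slc12a3, Pck1, Hnf4a, Xdh and Col4a3). Uncalled genes that changed sign were Aqp2 (TPM 0.16, plain totals 0.069, -0.30 to 0.099 without 1 library), Pecam1 (TPM 0.30, plain totals 0.20, without the 20 most abundant genes 0.11, array weights 0.037, without SZ 3, CKD 2 and CKD 5 0.0033, -0.067 to 0.052 without 1 library), Cpt1a (TPM 0.062), Slc5a2 (-0.067 to 0.29 without 1 library) and Cubn (-0.056 to 0.19 without 1 library). With the replicate number as a block 2584 genes were called against NC and 1195 against CKD. The labels give the numbers no meaning beyond a name. Same-numbered NC and SZ libraries correlated at -0.019 to 0.21 in their deviations, and 2 of 6 NC libraries correlated best with their own number, so the numbers are not taken as pairs. Genes near the expression filter rest on the fewest reads and have the widest counting error.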

Other observations

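Genes outside the lists, chosen here after their values were seen, included several linked to signalling by the interleukin-6 family. Socs3, a feedback inhibitor of STAT signalling, ran from 0.871 to 4.04 FPKM in NC (median 1.94) and from 11.5 to 29.5 FPKM in SZ (median 20.5), a log2 difference of 2.81 (SE 0.27, adjusted p = 2.4e-06). Osmr, the oncostatin M receptor, lay between 0.990 and 3.34 FPKM in the NC libraries (median 2.66) and between 10.1 and 18.3 FPKM in the SZ libraries (median 13.8), a difference of 2.14 (SE 0.21, adjusted p = 2.2e-06). The ligand Lif ran from 0.0166 to 0.432 FPKM in NC (median 0.335) and from 2.19 to 6.69 FPKM in SZ (median 4.55), a difference of 2.0 (SE 0.27, adjusted p = 4.8e-05). The SZ ranges of these 3 genes lay above NC. The secreted lectins Reg3b and Reg3g were listed at 0 in all NC libraries and lay at 2.65 to 6.30 and 1.37 to 3.41 FPKM in SZ. The phosphate cotransporter Slc34a2 differed by 2.55 (SE 0.35, adjusted p = 6.1e-05) and Olfm4, a glycoprotein of epithelial progenitors, by 2.56 (SE 0.29, adjusted p = 9.8e-06). Dio3, which inactivates thyroid hormone, was at most 0.221 FPKM in NC and 1.89 to 15.3 in SZ, a difference of 2.43 (SE 0.39, adjusted p = 2.5e-04).

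Lower genes outside the lists, also chosen after their values were seen, included further genes of intercalated cells. The oxoglutarate receptor Oxgr1 ran from 8.32 to 18.6 FPKM in NC (median 11.7) and from 1.64 to 4.47 FPKM in SZ (median 2.30), a difference of -1.86 (SE 0.25, adjusted p = 4.0e-05). The proton pump subunit Atp6v1c2 differed by -1.42 (SE 0.16, adjusted p = 1.2e-05) and the intracellular aquaporin Aqp6 by -1.31 (SE 0.29, adjusted p = 0.0039). Their SZ ranges lay below NC. Dnase1, the secreted nuclease, differed by -2.52 (SE 0.46, adjusted p = 8.3e-04), with overlapping ranges.

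Of 792 tested genes that the deposited table assigns to a transcription factor family, 83 were higher and 62 lower, 18.3% against 21.1% of all genes. Only some of the families are named here, picked with their counts in view. The Rel family had 4 of 10 higher (Nfkb1, Nfkb2, Rela and Relb) and 0 lower, and STAT 3 of 5 and 0. The bZIP family had 6 of 37 higher and 0 lower, a share of 16.2% that is near the 12.5% of all genes. Calls went both ways in bHLH (13 of 50 higher, 6 lower) and ETS (5 of 19 higher, 1 lower). The largest family, C2H2 zinc fingers, had 15 of 292 higher and 16 lower. The forkhead family had 0 of 17 higher and 5 lower, and oestrogen receptor-like factors 0 of 7 and 3, against 12.5% higher and 8.61% lower over all genes. Of 546 tested loci with neither a gene name nor a biotype in the table, 22 were higher (4.03%, against 12.5% of all genes) and 98 lower (17.9%, against 8.61%).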
